A study of Homo sapiens with 2 samples.

Results

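Expression of core and linker histone genes was examined in SU-DHL-1 cells, an established line derived from anaplastic large cell lymphoma (ALCL). The cells had received either an siRNA directed at HLX, an NKL homeobox gene (siHLX), or a control siRNA (siCTR). Members were the probe sets that the array annotation pairs with a single symbol of the core or linker histone nomenclature. The rule found 69 probe sets of 54 symbols, out of 54613 probe sets and 19775 named genes. Of these symbols, 43 belong to replication-dependent genes and 7 to variant genes. A further 3 are pseudogenes (H2AC5P, H1-9P and H4C10P), and H1-10-AS1 is an antisense RNA that carries a matching symbol. Both groups were the same cell line, which carries the NPM1-ALK fusion, and both were electroporated with siRNA. The siHLX group and the siCTR group had 1 array each, and neither a further culture nor the sequence of the HLX siRNA was described for the arrays. There is thus no replicate error, and all differences below describe these 2 arrays.

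Pairs of the core histones H2A, H2B, H3 and H4 form the protein spool of the nucleosome, and the linker histone H1 binds where DNA enters and leaves it. Replication-dependent histone genes lie mostly in clusters and are transcribed in S phase, when new DNA has to be packaged. Most of their transcripts end in a stem-loop instead of a poly(A) tail. Variant histone genes mostly stand alone, are mostly used throughout the cell cycle, and mostly give polyadenylated transcripts. H2AX is counted with the variants here, and as an alternative it was counted with the replication-dependent genes. Labelling for this array type usually starts at poly(A) tails. The primer was not given in the sources used here. A low reading of a replication-dependent gene therefore cannot be told apart from poor labelling of its transcript.

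HLX, the target of the siRNA, read 7.70 on the siHLX array and 8.15 on the siCTR array on its only probe set. This is 0.732 times the control level, a difference of -0.45. Scaling to poly-A controls, given below, adds 0.289 to this difference as to all others. The 7 ALCL markers, among them TNFRSF8 (CD30) and the fusion partner ALK, all lay above the level threshold, at mean levels from 9.85 to 13.40. The lowest differences among them, siHLX minus siCTR, were -0.13 for TNFRSF8 and -0.12 for IRF4, and the highest 0.06 for IL2RA and 0.03 for PRF1. These are the readings of the brightest probe sets. Other sets above the threshold had the opposite direction, at 0.30 for IRF4, -0.17 for IL2RA and -0.05 for PRF1. The threshold is 4.865, the median over all probe sets on the log2 scale. Of 4 T-cell markers, CD2 lay below it, and the 3 above it were all lower with siHLX, CD247 at -0.62, CD4 at -0.33 and CD3E at -0.19. Their levels, from 5.23 to 5.80, lay near the threshold. MS4A1 of B cells, CD14 and LYZ of myeloid cells, and EPCAM and KRT19 of epithelia also lay below it. CD79A of B cells (0.24), CSF1R of myeloid cells (0.44) and the collagen gene COL1A1 of stroma (-0.19) lay above it. The other collagen gene, COL1A2, had a mean below it and read 5.27 with siHLX and 4.25 with siCTR, a difference of 1.02. The part of these markers in the histone readings was not tested. Poly-A controls spiked into the RNA read lower on the siHLX array, by a mean of -0.289 (SD 0.177, 24 probe sets). Controls added after labelling differed by -0.025 (SD 0.085, 18 probe sets). As a measure of RNA degradation, the log2 ratio of the 3' to the 5' end of GAPDH differed by -0.06 between the arrays and that of ACTB by -0.04.

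Both classes of histone genes had medians below that of all genes, and none of the single genes reached a 2-fold difference. Intensities of different probe sets do not rank transcript amounts, so each gene is compared with itself across the arrays. Of the 50 histone genes, 27 lay above the level threshold, 21 of them replication-dependent and 6 variant. Among the 21 replication-dependent genes, 13 were lower on the siHLX array, 7 higher and 1 equal, with a median log2 difference of -0.24. The next value above this median was -0.09. Over the 22 probe sets of this class above the threshold, 14 were lower and 7 higher, with a median of -0.165. All 6 variant genes were lower on their brightest probe set, with a median of -0.165. Over the 12 variant probe sets above the threshold, 9 were lower and 2 higher, with a median of -0.075. Of the 12135 genes above the threshold, 50.2% lay below 0 and 47.4% above, with a median of -0.01. A 2-fold increase with siHLX was reached by 0 histone genes, against 0.445% of all genes, and a 2-fold decrease by 0 histone genes, against 0.387% of all genes (0.832% for both directions). The class medians differed by -0.075, replication-dependent minus variant. Within the classes the SD between genes was 0.294 and 0.159, so both classes overlapped in their differences.

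The sign of both class medians depended on the scale, and the size of the replication-dependent one differed between kinds of probe set. When the poly-A controls were set equal on both arrays, the class medians lay above 0, at 0.049 for replication-dependent and 0.124 for variant genes, while the median of all genes moved to 0.279. This scaling adds the same amount to every gene, so it moves all genes alike and leaves their order as it was. Probe sets named _s_at match several transcripts, and some probes of sets named _x_at match further sequences. Such sets read 8 of the 21 replication-dependent genes, of which 6 were lower, with a median of -0.31. The other 13 had 7 lower, 5 higher and 1 equal, with a median of -0.01. Over all genes the medians for both kinds of set were -0.01 and 0.0. The 8 replication-dependent genes read by such sets had a median level of 7.502, and the other 13 one of 5.56. Kind of probe set and level therefore cannot be told apart in the gap between them. Whether related histone transcripts binding to the same probes had a part in this gap was not tested.

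**Figure D1:**
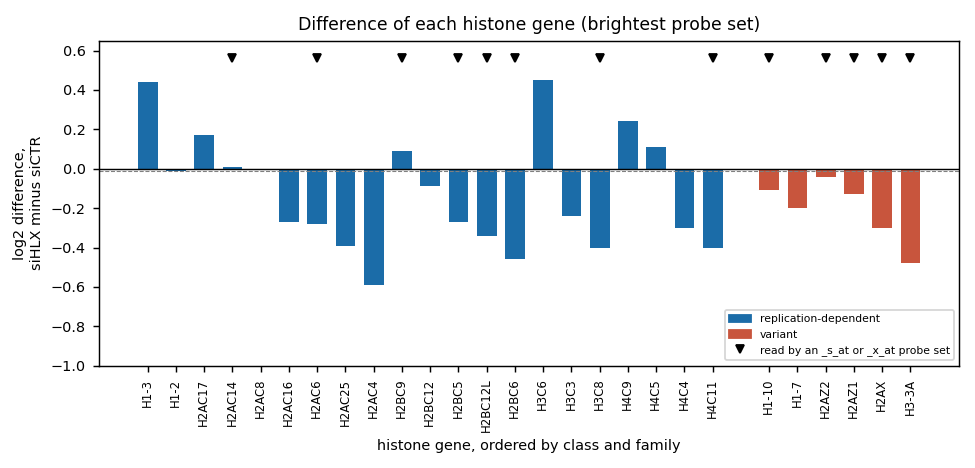
Log2 difference, siHLX minus siCTR (y axis), of the 27 histone genes above the level threshold (x axis, ordered by class and family), each read by its brightest probe set. Bars are single differences without error, triangles mark genes read by an _s_at or _x_at probe set, and the dashed line is the median of all genes at -0.01. Replication-dependent genes reach from -0.59 to 0.45, and all 6 variant genes lie below 0.

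Among the genes for the core histone H2B, 5 of 14 lay above the threshold and 4 of these were lower. H2BC12 had a small difference of -0.09, with 9.73 on the siHLX array and 9.82 on the siCTR array. H2BC12L, a related gene on chromosome 21 outside the large clusters, read 8.38 with siHLX and 8.72 with siCTR, a difference of -0.34. H2BC6 had the most negative difference of the family, -0.46, with 7.26 on the siHLX array and 7.72 on the siCTR array. For H2BC5 both probe sets were lower, but by unequal amounts. The brighter read 7.69 with siHLX and 7.96 with siCTR (-0.27), and the other 7.38 with siHLX and 7.41 with siCTR (-0.03). H2BC9 was the exception in direction, at 7.56 with siHLX and 7.47 with siCTR. All of these except H2BC12 were read by _x_at probe sets.

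Of the genes for the core histone H2A in the clusters, 7 of 8 lay above the threshold. H2AC25, which lies on chromosome 1, read 7.27 on the siHLX array and 7.66 on the siCTR array, a difference of -0.39. Its other probe set, below the threshold, read 4.50 with siHLX and 5.08 with siCTR. Both readings of this gene were thus lower. H2AC6 followed with 7.00 with siHLX and 7.28 with siCTR, and H2AC14 was equal within 0.01 at 7.30 with siHLX and 7.29 with siCTR. The remaining H2A genes went both ways. H2AC4 had the most negative difference of all histone genes above the threshold, -0.59, with 5.12 on the siHLX array and 5.71 on the siCTR array. H2AC16 read 4.96 with siHLX and 5.23 with siCTR. H2AC17 was higher at 6.18 with siHLX and 6.01 with siCTR, and H2AC8 read 5.44 on both arrays. Probe sets given to H2AC17 together with other H2A genes were lower, at -0.15 and -0.63, so the direction of H2AC17 is not settled.

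**Figure D2:**
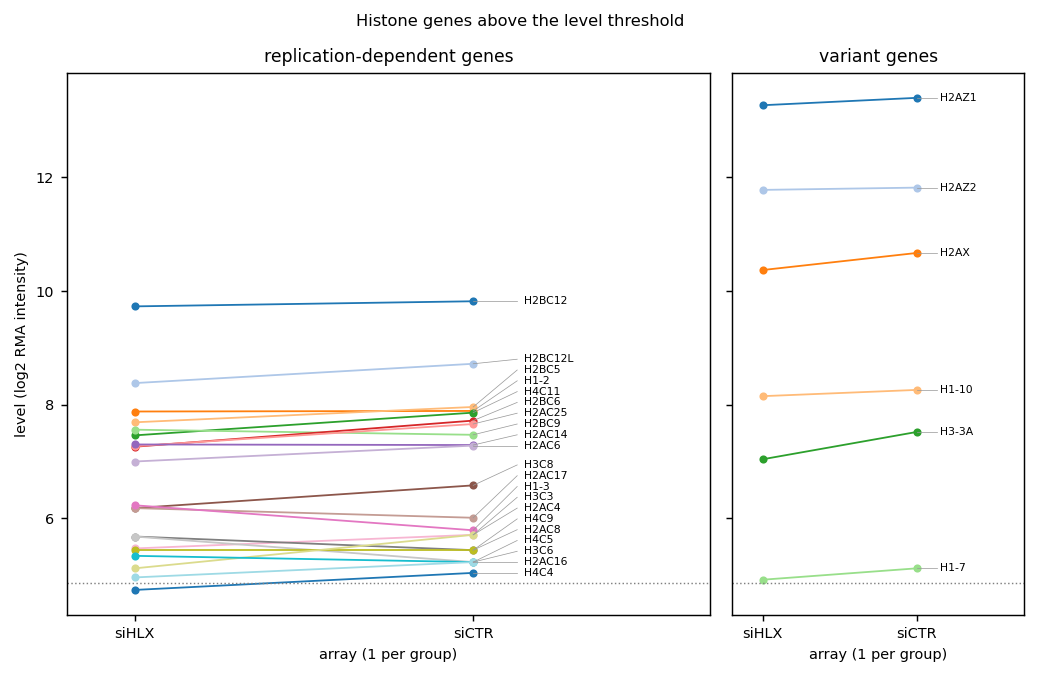
Level of each histone gene above the threshold (y axis, log2 RMA intensity) on the siHLX array and the siCTR array (x axis), with 1 line per gene and replication-dependent genes in the left panel, variant genes in the right. Points are single arrays without error, and the dotted line is the threshold of 4.865. Most lines are close to level, as for H2BC12 at 9.73 with siHLX and 9.82 with siCTR and for H2AZ1 at 13.27 with siHLX and 13.40 with siCTR.

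The members of the H3 and H4 families differed in direction on their own probe sets. H3C8 read 6.18 on the siHLX array and 6.58 on the siCTR array, and H3C3 read 5.47 with siHLX and 5.71 with siCTR. H3C6 was higher at 5.68 with siHLX and 5.23 with siCTR. The other probe set of H3C6, below the threshold, had a difference of -0.15. Sets above the threshold given to H3C6 together with other histone genes had -0.86 and 0.0, so the direction of H3C6 is not settled. H4C11 read 7.46 with siHLX and 7.86 with siCTR, a difference of -0.40 on an _x_at probe set. H4C4 read 4.74 with siHLX and 5.04 with siCTR, while H4C9 was higher (5.68 with siHLX and 5.44 with siCTR) and so was H4C5 (5.34 with siHLX and 5.23 with siCTR). The H4 family was thus split on these sets, with 2 lower and 2 higher. Sets above the threshold given to all of these H4 genes together with others had 0.29, -0.22 and -0.68. The directions of the single H4 genes are therefore not settled. Of the replication-dependent linker histone genes, H1-2 was equal within 0.01, with 7.88 on the siHLX array and 7.89 on the siCTR array. H1-3 read 6.23 with siHLX and 5.79 with siCTR, a difference of 0.44.

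The class was split by level. Of the 10 replication-dependent genes at or above the 75th percentile of all probe sets (7.095), 8 were lower and 2 higher, with a median of -0.275. Among all 7526 genes at these levels 51.1% were lower, with a median of -0.01 and an SD of 0.174. The 11 replication-dependent genes between both thresholds had 5 lower, 5 higher and 1 equal and a median of 0.0, and all 4609 genes there an SD of 0.392. Of the 10 brighter genes, H2BC12, H1-2 and H2AC25 were read by plain probe sets, with differences of -0.09, -0.01 and -0.39. By position, 19 genes above the threshold lie on chromosome 6, with a median of -0.09 and 11 lower. The 22 replication-dependent genes below the threshold, where readings are hardly above background, had 13 lower and 9 higher and a median of -0.05. They ran from -0.61 for H2AC15 to 0.66 for H2BC15. With no threshold the median of the class was -0.05.

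**Figure D3:**
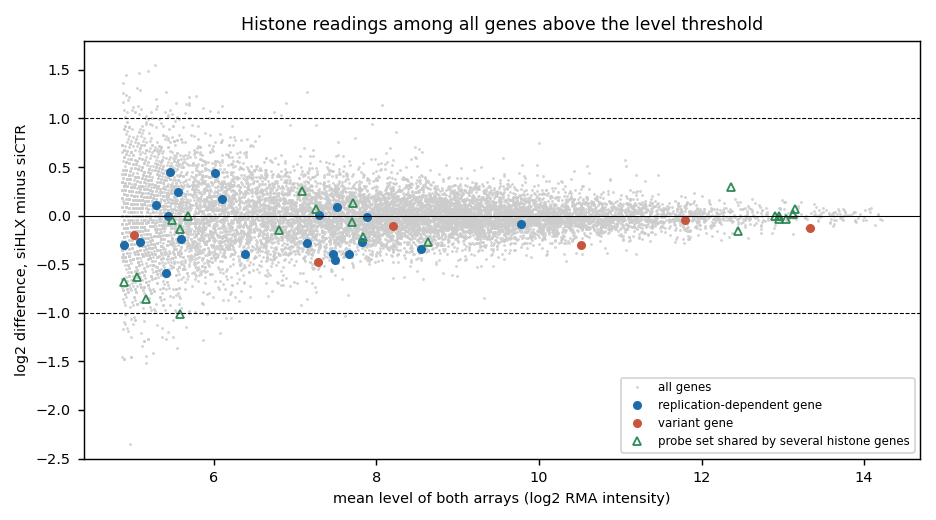
Log2 difference, siHLX minus siCTR (y axis), against level (x axis, log2 RMA intensity, averaged over the arrays) for all 12135 genes above the threshold (grey), histone genes (filled circles) and probe sets shared by several histone genes (open triangles). Dashed lines mark 2-fold. Histone genes run from -0.59 to 0.45, and 1 shared probe set lies at -1.01.

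The variant genes above the threshold were all lower on their main probe set. H2AX, whose protein is phosphorylated at DNA breaks, read 10.37 on the siHLX array and 10.67 on the siCTR array, a difference of -0.30. All genes with levels from 9 to under 11 had an SD of 0.143. Its other probe sets did not all share the direction. Those above the threshold differed by -0.16 and 0.16, and the dimmest by -0.09. H2AZ1 and H2AZ2 encode the forms of H2A.Z, a variant found at gene starts. H2AZ1 read 13.27 with siHLX and 13.40 with siCTR on its brighter probe set, and 12.78 with siHLX and 12.82 with siCTR on the other. H2AZ2 read 11.78 with siHLX and 11.82 with siCTR on its brightest set, and its 4 probe sets ran from -0.04 to 0.20. The linker histone gene H1-10 read 8.15 with siHLX and 8.26 with siCTR. H1-7, a linker histone of the testis, lay close to the threshold at 4.92 with siHLX and 5.12 with siCTR, and H1-8 of the oocyte lay below it at 4.60 with siHLX and 4.55 with siCTR. Averaging each gene's probe sets left 5 variant genes above the threshold, without H1-7, with a median of -0.098, and H2AZ2 then had the opposite sign at 0.03. Between probe sets of H2AX the SD was 0.236, and over all genes with at least 2 probe sets the pooled SD was 0.268. Both SDs describe probe sets of 1 pair of arrays, not replicate cultures.

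The replacement variant of H3, encoded by H3-3A and H3-3B alike, gave readings that differed between probe sets. The only set paired with H3-3A alone read 7.04 on the siHLX array and 7.52 on the siCTR array, a difference of -0.48. H3-3B had no set of its own and was not analysed alone. The 8 probe sets that the annotation gives to both genes had 3 lower, 3 higher and 2 equal, with a median of 0.0 and a range from -0.16 to 0.13. The brightest of them read 13.19 with siHLX and 13.12 with siCTR. The low H3-3A reading was thus not seen on the brighter sets of this transcript pair, and without it 5 variant genes remain, from -0.30 to -0.04.

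**Figure D4:**
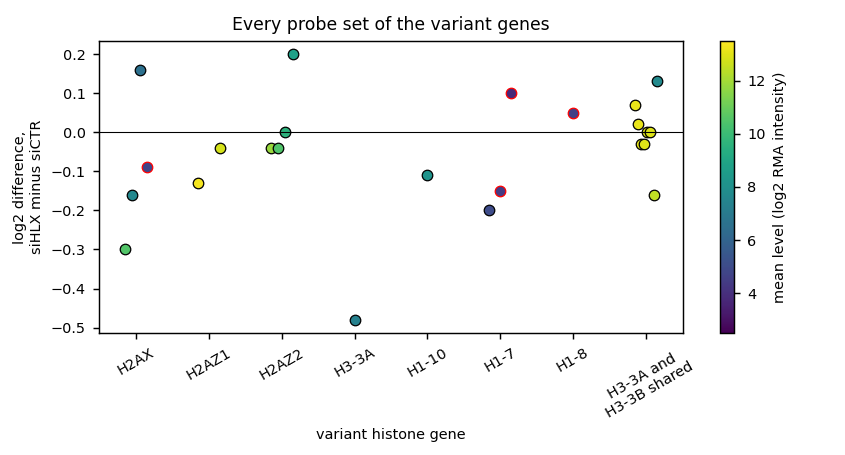
Log2 difference, siHLX minus siCTR (y axis), of every probe set of the variant histone genes and of the 8 sets shared by H3-3A and H3-3B (x axis). Colour gives the mean level (log2 RMA intensity), and red rims mark sets below the level threshold. H2AX runs from -0.30 to 0.16, and the single H3-3A set at -0.48 lies apart from the shared sets, which run from -0.16 to 0.13.

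Many histone transcripts are near-identical copies that no single probe set tells apart. In all, 28 probe sets were paired with several genes that include a histone gene of the rule, and 22 of them lay above the threshold. Of these, 13 were lower, 6 higher and 3 equal, with a median of -0.035, against 50.2% lower and 47.4% higher among all genes. A set given to 14 H4 genes read 12.51 on the siHLX array and 12.22 on the siCTR array. At 0.29 it had the direction opposite to that of H4C11 and H4C4. The next set for the same genes read 7.73 with siHLX and 7.95 with siCTR, opposite to H4C9 and H4C5. The dimmest set for these genes above the threshold, at a mean level of 4.89, read 4.55 with siHLX and 5.23 with siCTR, a difference of -0.68. For H2B, the sets given to H2BC4, H2BC6, H2BC7, H2BC8 and H2BC10 read 7.29 with siHLX and 7.22 with siCTR on the brighter set, and 7.21 with siHLX and 6.96 with siCTR on the next. H2BC6 was lower on its own set and these sets were higher, so its direction is not settled. A set given to H2BC8 and H2BC11 read 5.08 with siHLX and 6.09 with siCTR, a difference of -1.01, the only shared one past 2-fold. Among all genes above the threshold 0.832% passed 2-fold in either direction. This set was dim, at a mean level of 5.585, and all genes between the median and the 75th percentile of level had an SD of 0.392. The other set of this pair had -0.14. The H2A pair H2AC18 and H2AC19 read 8.50 with siHLX and 8.77 with siCTR on its brightest set, and -0.07 on the next. All 4 shared H2A sets above the threshold were lower.

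Histone promoters hold short elements that link their transcription to the cell cycle, among them an octamer bound by OCT1, CCAAT boxes and a TATA box. Promoter windows of 300 bases, from 250 before to 50 after the transcript start, were taken from RefSeq (GRCh38.p14) for 40 of the 43 replication-dependent genes and for all 7 variants. Windows were searched on both strands for ATTTGCAT (octamer), CCAAT and TATAAA, which did not overlap in the windows printed. Matches counted at any position, so a TATAAA need not be a TATA box. The TATAAA marked in H2BC6 lies upstream of its CCAAT and its octamer. The octamer was found for 10 of 13 H2B genes and 6 of 8 H2A genes with a window, for 0 of the other replication-dependent and 0 of the variant genes, and for 2.2% of all 27305 genes. CCAAT was found for 35 of 40 replication-dependent and 6 of 7 variant genes, against 39.7% of all genes, and TATAAA for 27 of 40 and 3 of 7, against 14.0%. Windows are shown for 4 genes, to set octamer promoters beside promoters that lack it. They belong to H2BC6 and H2BC9, a pair of H2B genes with an octamer, and to the variants H2AX and H2AZ1, which lack it. The H2B pair had differences of -0.46 and 0.09 on their own _x_at sets, and the direction of H2BC6 is not settled. The 4 windows lie at chr6:26183511-26183810 and chr6:26251364-26251663 on the plus strand, and at chr11:119095416-119095715 and chr4:99950226-99950525 on the minus strand, and are printed 5′ to 3′ with matches in capitals.
H2BC6: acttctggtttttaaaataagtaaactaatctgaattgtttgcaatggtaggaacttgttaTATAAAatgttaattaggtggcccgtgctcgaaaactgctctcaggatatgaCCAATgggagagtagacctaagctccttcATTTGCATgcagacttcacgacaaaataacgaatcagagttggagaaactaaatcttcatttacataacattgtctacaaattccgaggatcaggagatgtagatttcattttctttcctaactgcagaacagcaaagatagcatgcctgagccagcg
H2BC9: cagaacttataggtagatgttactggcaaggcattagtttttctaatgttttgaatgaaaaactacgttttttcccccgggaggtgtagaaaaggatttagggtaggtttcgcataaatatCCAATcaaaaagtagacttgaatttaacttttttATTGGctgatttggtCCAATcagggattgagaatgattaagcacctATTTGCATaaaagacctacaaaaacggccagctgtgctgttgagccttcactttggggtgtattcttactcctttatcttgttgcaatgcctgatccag
H2AX: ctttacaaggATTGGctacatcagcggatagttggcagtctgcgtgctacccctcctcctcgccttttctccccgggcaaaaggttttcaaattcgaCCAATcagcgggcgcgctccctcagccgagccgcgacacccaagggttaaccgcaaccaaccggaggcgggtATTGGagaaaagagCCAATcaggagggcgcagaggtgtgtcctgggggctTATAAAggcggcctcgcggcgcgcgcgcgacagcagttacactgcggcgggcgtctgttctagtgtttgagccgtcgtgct
H2AZ1: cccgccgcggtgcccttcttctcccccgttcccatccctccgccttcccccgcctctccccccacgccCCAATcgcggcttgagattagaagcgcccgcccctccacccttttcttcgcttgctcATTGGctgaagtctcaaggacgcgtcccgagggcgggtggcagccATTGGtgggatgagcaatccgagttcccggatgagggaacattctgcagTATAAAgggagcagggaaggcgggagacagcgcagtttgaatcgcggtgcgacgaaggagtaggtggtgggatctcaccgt

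Differences of genes with and without the octamer overlapped. The 9 replication-dependent genes above the threshold with an octamer in the window had 5 lower, 3 higher and 1 equal, with a median of -0.09. The 11 without had 7 lower and 4 higher, with a median of -0.24. A match of letters says nothing of binding, and no binding was measured here.

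Genes that make histone transcripts and carry histones were also read. Of 20 genes for transcription and 3' end processing of histone transcripts, 12 were lower and 6 higher with siHLX, with a median of -0.045. For this and the lists below, the shares over all genes were 50.2% lower and 47.4% higher. SLBP, which binds the stem-loop, read 11.37 on the siHLX array and 11.25 on the siCTR array. NPAT, a substrate of cyclin E that activates histone transcription, read 8.42 with siHLX and 8.31 with siCTR. Both read slightly higher on the siHLX array. The lowest of the list were E2F1, a transcription factor of S-phase entry (-0.33), and UPF1, which takes part in the decay of histone transcripts (-0.21). The second probe set of E2F1 had -0.30, and that of UPF1 0.03. The highest were SYMPK, a scaffold of 3' end processing (0.24), and ERI1, an exonuclease that trims the stem-loop end (0.19). Their other probe sets above the threshold did not all share this direction, with -0.12 and 0.10 for SYMPK and -0.25 for ERI1.

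Of 31 genes for histone chaperones and carriers, 12 were lower and 17 higher, with a median of 0.01. UBN1, a subunit of the HIRA complex that deposits the replacement H3, had 0.47, with 8.28 on the siHLX array and 7.81 on the siCTR array. Its other probe set had the opposite direction at -0.40, with 7.56 on the siHLX array and 7.96 on the siCTR array, so the direction of UBN1 is not settled. EP400, a remodeller that exchanges H2A.Z, read 8.72 with siHLX and 8.35 with siCTR, and its other sets above the threshold had 0.04 and 0.60. Lowest were the elongation factor SUPT6H at -0.39 and HJURP, the chaperone of centromeric CENPA, at -0.25. The other sets of SUPT6H above the threshold had -0.07 and 0.24, whereas HJURP had a single set. For CHAF1A, a subunit of the chaperone that works at replication forks, the brightest set had 0.16 and the other 3 had -0.02, -0.18 and 0.79. Its partner CHAF1B had -0.03. Of other variants outside the rule, 4 lay above the threshold. MACROH2A1, a variant of silent chromatin, and CENPA both had -0.10, H2AJ had 0.06 and MACROH2A2 0.16. Other sets of MACROH2A1 above the threshold ran from -0.04 to 0.22, and the second set of H2AJ had -0.02.

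DNA replication genes, with which replication-dependent histones are made, were lower in 29 and higher in 14 of 45, with a median of -0.06. That is 64.4% lower, against 50.2% of all genes. POLA2 (-0.35) and PRIM2 (-0.34), subunits of DNA polymerase alpha and primase, were lowest, and the primase subunit PRIM1 (0.22) and the replication protein RPA1 (0.15) highest. The next set of POLA2, close to the threshold, had the opposite direction (0.51). That of RPA1 had -0.06. The medians of the replication genes (-0.06), the histone genes (-0.2) and the genes for histone transcripts (-0.045) lay below that of all genes (-0.01). The median of the chaperones (0.01) lay above it. Whether the share of cells in S phase differed between the cultures was not tested. Fewer cells of a phase and less RNA per cell cannot be told apart in bulk samples.

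**Figure D5:**
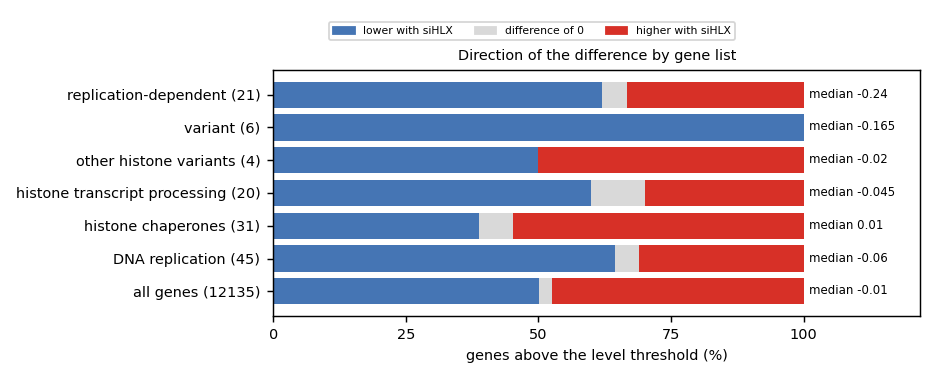
Share of genes above the level threshold (x axis, percent) that were lower, equal or higher on the siHLX array than on the siCTR array, for both histone classes, 4 further lists and all genes (y axis, number of genes in parentheses); medians of the log2 difference stand at the right. All 6 variant genes and 13 of 21 replication-dependent genes are lower, against 50.2% of all genes, with all differences relative to the bulk of genes; both class medians lie above 0 once poly-A controls are set equal.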

How the data were processed

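RNA of SU-DHL-1 cells given siHLX or siCTR was hybridised to 1 Affymetrix HG-U133 Plus 2.0 array per siRNA. The authors deposited 1 log2 intensity per probe set. In their methods, intensities were background corrected by RMA and quantile normalised with the R packages limma and affy, whose versions are not given in the sources used here. Quantile normalisation equalises overall brightness, so differences are relative to the bulk of transcripts. Ratios to the sample mean, named in the methods, were not applied in these values.

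The platform annotation named 1 gene for 41091 of 54613 non-control probe sets, several for 1801 and none for 11721. Entrez identifiers matched RefSeq (GRCh38.p14) for 41037, and 0 symbols changed. The probe set with the highest mean represented each gene, and a gene was counted when that mean reached 4.865, the median over all probe sets. With 1 array per group no test was possible, and no p-value was computed. Every histone gene above the threshold is named, with the extremes below it and the 2 highest and 2 lowest members of each other list above it. Members and lists were chosen with earlier results of these data known.

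Alternatives were median centring, lowess removal of the trend with level (fraction 0.2), repeated quantile normalisation, scaling to poly-A spike controls, averaged probe sets, plain probe sets only, other level thresholds, a 1.5-fold limit and other class borders. Python 3.11.15, pandas 2.3.3 and statsmodels 0.14.6 were used. The step from probe sets to genes was checked on shuffled differences with known shifts added. That check did not cover the alternatives, the shared probe sets or the promoter search.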

Additional observations from a re-analysis of the deposited data

How the results depend on the processing

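Lowess removal of the trend with level, the mean of all probe sets, the threshold at the 75th percentile and the class borders moved for H2AX and for linker histones gave class medians below 0, with the replication-dependent median below that of the variants. Under the mean of all probe sets 20 replication-dependent and 5 variant genes were counted, and 1 of 27 genes, H2AZ2, had the opposite sign. Median centring and repeated quantile normalisation could move little or nothing here, since both arrays already had a median of 4.87 and equalised values, and leaving out testis-specific cluster genes removed 0 counted genes. Scaled to equal poly-A controls, the medians were 0.049 for replication-dependent and 0.124 for variant genes, and the signs of 10 of the 27 single genes changed; that scaling adds 0.289 to every difference. Without _s_at and _x_at probe sets, 13 replication-dependent and 3 variant genes remained, with medians of -0.01 and -0.04 and a difference between classes of 0.03. With no level threshold, the replication-dependent median was -0.05 and the difference between classes 0.08. The order of both classes is therefore not settled. With a 1.5-fold limit 1 gene, H2AC4, was lower, instead of 0 at 2-fold. The share of all genes past 1.5-fold is not given here, so this count cannot be set against it. H2AC4 had a mean level of 5.415, and all genes between both thresholds had an SD of 0.392. No paired analysis was possible because there was 1 array per group. With single arrays, differences of dim genes, which scatter most, carry the least weight.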
